A study of Mus musculus with 8 samples.

Results

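The facilitative glucose transporters described here are 7 genes of the Slc2a family, Slc2a1, Slc2a3, Slc2a4, Slc2a5, Slc2a8, Slc2a10 and Slc2a12, whose transcripts were read on arrays of mouse gastrocnemius, a limb muscle of the calf. They were taken as every probe set whose only gene symbol in the array's annotation was one of these names, which gave 15 probe sets for 7 of the 18193 genes on the array with such a probe set. The genes were chosen from a family that includes Slc2a3, whose lower signal in the receptor knockout was known when the list was made. The differences between groups below are therefore descriptions, and no test on the listed genes counts as support. The 8 samples, 1 Affymetrix array each, fell into 2 groups of 4. Control animals were labelled wild type and GR_KO animals as knockouts of the glucocorticoid receptor, all on a C57/Bl6J background, and the design text writes the mutant as GR(i)skm-/-. The series title speaks of myofiber-selective networks. The sources used here do not give the age and sex of the mice, the construct that deleted the gene or any inducing agent. Nothing in the labels says that the samples came from separate animals, so errors and p-values describe only how far these arrays scatter, and that scatter may be technical.

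Facilitative transporters are membrane proteins that let glucose or related sugars cross down their gradient without energy. In skeletal muscle the main insulin- and contraction-responsive transporter is GLUT4, encoded by Slc2a4, which is held in vesicles and moved to the surface membrane on demand. Other members serve basal uptake, fructose transport or intracellular membranes. Glucocorticoids are known to lower glucose uptake by muscle, and their receptor, encoded by Nr3c1, is a hormone-activated transcription factor.

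Values are MAS5 signals, brightness on a linear scale summarised per probe set. A probe set was called dim when its mean log2 signal did not exceed the median over the array, equal to a signal of 19.4. The median array signal lay between 18 and 26. Control replicate 4 stood apart: its hybridisation spike-in signal was 4304, against 1184 to 1981 on the other 7 arrays. The ratio of 3′ to 5′ actin signal, a sign of RNA quality, was 0.991 to 1.73 in controls and 1.07 to 1.84 in GR_KO muscle, and that of Gapdh was 1.2 on control replicate 4 against 0.797 to 0.915 on the others. Of 6 probe sets for the deleted gene, Nr3c1, 2 had groups that did not overlap: 1460303_at read 307 to 377 in controls and 76 to 134 in GR_KO muscle, and 1457635_s_at read 100 to 189 and 29 to 43. The brightest, 1421867_at, overlapped at 213 to 513 against 105 to 222, and so did the other three, with log2 differences from -1.34 to -0.32. In limma over genes, where a gene's brightest probe set stands for it, Nr3c1 was not called (adjusted p = 0.777). In limma over probe sets, 1460303_at (adjusted p = 0.0240) and 1457635_s_at (adjusted p = 0.0354) were called. Which of these probe sets lie in the deleted part is not known here. All 12 listed myofibre markers were above the dim level. Their summed signal was 272425 on control replicate 4, against 123951 to 139455 on the other controls and 113358 to 177249 in GR_KO muscle. The median log2 difference of these markers was -0.10, or 0.17 without control replicate 4. In whole muscle, fewer cells of a type and less RNA per cell cannot be told apart.

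Slc2a3 was the transporter whose signals separated the groups. It encodes GLUT3, a transporter with high affinity for glucose that is best known from neurons and also occurs in platelets, leukocytes and developing muscle. Its brightest probe set, 1437052_s_at, read 164, 145, 158 and 178 in control replicates 1 to 4, and 83, 46, 70 and 63 in GR_KO replicates 1 to 4. All 4 GR_KO signals lay below all 4 control signals, with the lowest on GR_KO replicate 2. Means were 161 ± 13.7 for controls and 65.5 ± 15.4 for GR_KO muscle (SD, n = 4 each), which on the log2 scale is a difference of -1.33 ± 0.19 (SE, 95% interval -1.75 to -0.90). In ratio the GR_KO level was 2.51-fold lower, with an interval from 0.297 to 0.535 of the control level.

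The remaining Slc2a3 probe sets gave smaller or unreadable differences. Probe set 1455898_x_at, designed on the same source transcript as 1437052_s_at, read 65, 59, 73 and 79 in controls and 69, 48, 34 and 30 in GR_KO muscle. The groups overlapped through GR_KO replicate 1, and the log2 difference was -0.68 ± 0.27 (95% interval -1.29 to -0.06). Its suffix marks probes that may also bind other transcripts, and the suffix of 1437052_s_at marks probes shared by several transcripts. Why both probe sets disagree was not resolved. The log2 distance between both probe sets was 1.11 to 1.34 on the control arrays. It was 1.04 and 1.07 on GR_KO replicates 3 and 4, but 0.27 and -0.06 on replicates 1 and 2, so both probe sets kept their distance on 2 of 4 GR_KO arrays only. Probe set 1427770_a_at was dim, with signals of 1 to 17 in controls and 1 to 8 in GR_KO muscle. Probe set 1421924_at was dimmer still, at 0 to 2 on all 8 arrays, and neither carries a readable difference.

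**Figure D1:**
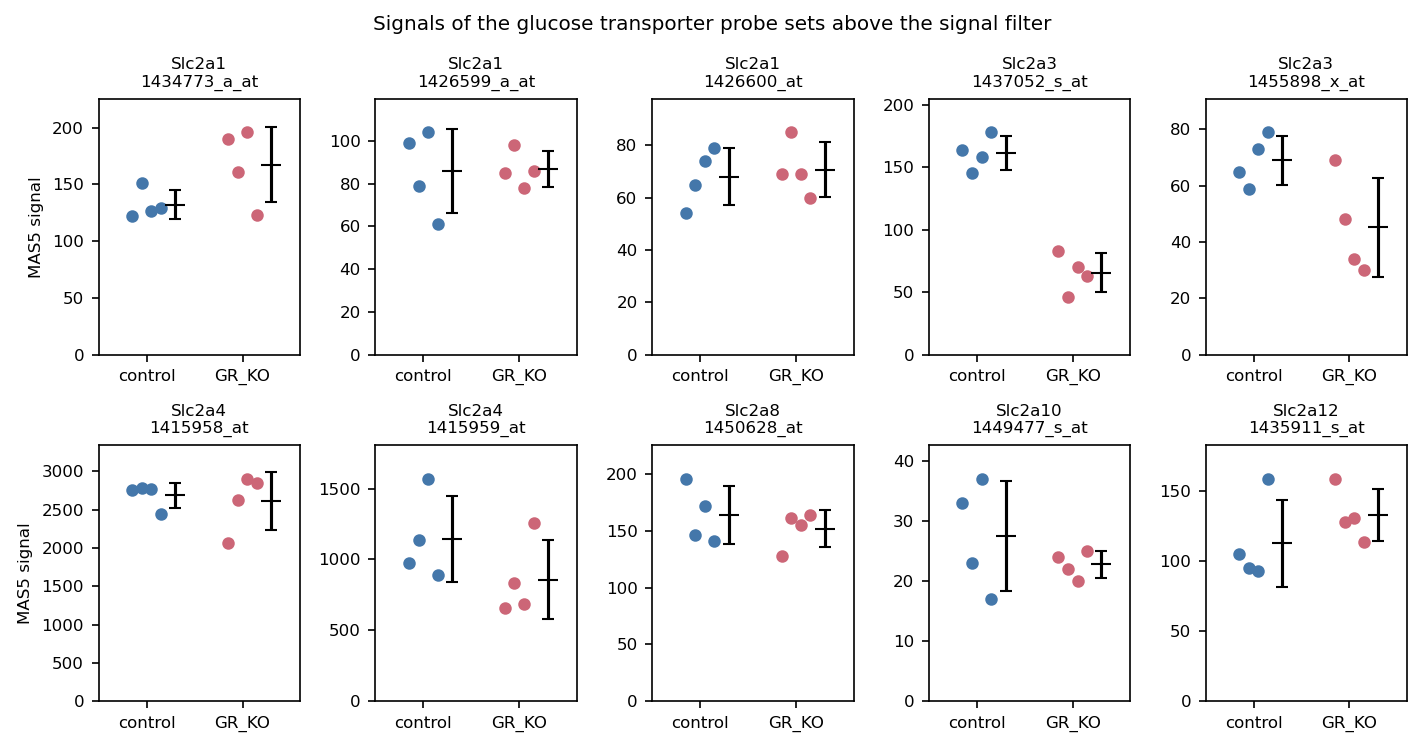
MAS5 signal (linear axis from 0, a separate scale for each panel) of the 10 transporter probe sets above the dim level, with a point per array and the mean ± SD of 4 arrays beside each group. For Slc2a3 1437052_s_at the GR_KO arrays lie between 46 and 83 and the controls between 145 and 178, while the groups overlap in the other panels.

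Slc2a3 was the only member called in limma over all 11062 genes tested (adjusted p = 0.0476), among the 0.0542% of genes called lower and 0% called higher. This call was known when the members were chosen, so nothing is read from it. Over probe sets rather than genes, 0.0222% were called. Of the members' 15 probe sets, 10 were in that fit and 0 of them were called. The adjusted p of 1437052_s_at there was 0.108, and 844 of 22518 probe sets had an unadjusted p under 0.05. The call over genes lay close to the threshold of 0.05, and leaving out any of 7 of the 8 arrays ended it. The adjusted p in limma then ran from 0.0699 (control replicate 4 left out) to 0.308 (control replicate 1 left out). Without GR_KO replicate 1 the adjusted p was 0.0313. The call also ended with median centring of the arrays (adjusted p = 0.0749), without the filter on dim genes or without the variance trend (both 0.131), and with the replicate number as a block (0.185). With a gene's probe sets averaged, Slc2a3 fell below the filter and had no p, and its difference was -0.63. With single arrays left out the difference itself ran from -1.45 without GR_KO replicate 1 to -1.17 without GR_KO replicate 2.

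Slc2a4, the muscle transporter GLUT4, showed no such separation. Its brighter probe set, 1415958_at, read 2753, 2788, 2765 and 2450 in controls and 2070, 2623, 2905 and 2855 in GR_KO muscle. The GR_KO arrays held both the lowest and the highest signals, and the log2 difference was -0.05 ± 0.14. Its 95% interval, -0.37 to 0.26, spans 0.775 to 1.20 times the control level, and levels within that range are compatible with these arrays. The second probe set, 1415959_at, read 976, 1140, 1569 and 890 in controls against 654, 831, 685 and 1259. Here 3 of 4 GR_KO arrays lay below every control, GR_KO replicate 4 did not, and the log2 difference was -0.43 ± 0.24 (95% interval -0.98 to 0.12), or -0.27 without control replicate 3.

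Slc2a1 encodes GLUT1, the transporter of basal uptake, abundant in human red blood cells and in endothelium of the brain. Probe set 1434773_a_at read 122, 151, 127 and 129 in controls and 190, 161, 196 and 123 in GR_KO muscle. On this probe set 3 of 4 GR_KO arrays exceeded every control, GR_KO replicate 4 lay among them, and the log2 difference was 0.32 ± 0.17 (95% interval -0.06 to 0.70). The other Slc2a1 probe sets did not share it: the log2 differences were 0.04 ± 0.19 for 1426599_a_at and 0.06 ± 0.18 for 1426600_at. Of 11 endothelial markers listed, 10 were measured above the dim level, none of them at 0. In limma 0 of the 10 were called and 3 had an unadjusted p under 0.05, and 9 had differences above 0, Tek being the exception at -0.11. Their summed signal was 3751 to 4573 in controls and 4761 to 6548 in GR_KO muscle, with no overlap. Taken singly, 1 of the 10 had groups that did not overlap, against 2.58% of all genes tested. The median log2 difference of the 10 was 0.37, against 0.01 over all genes tested, and 0.25 without control replicate 4. Of 8 red cell markers 2 were above the dim level, with sums of 106 to 263 against 130 to 235 and a median of 0.30, or 0.18 without control replicate 4. All 8 fibroblast markers were above it, with sums of 6587 to 12322 against 11067 to 15792 and a median of 0.40, or 0.27 without that array. Of these, 6 differed above 0 and 0 were called, with Pdgfra at -0.41 and Lum at -0.22. The part of any of these cell types in the Slc2a1 values was not tested.

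Slc2a12 encodes GLUT12, a transporter of muscle, heart and fat that can also respond to insulin. Probe set 1435911_s_at read 105, 95, 93 and 159 in controls and 159, 128, 131 and 114 in GR_KO muscle. Every GR_KO array exceeded the 3 lower controls, and control replicate 4 matched the highest GR_KO array. The log2 difference was 0.26 ± 0.20 (95% interval -0.18 to 0.70), and 0.44 without control replicate 4. The dim probe set 1455501_at, at 5 to 33 over all arrays, differed by -0.08 ± 0.64.

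The members of intracellular membranes gave small differences. Slc2a8, or GLUT8, sits in endosomes and lysosomes. Its single probe set, 1450628_at, read 196, 146, 172 and 141 in controls and 128, 161, 155 and 164 in GR_KO muscle. The groups overlapped between 141 and 164, with 2 controls above every GR_KO array and GR_KO replicate 1 below every control. The log2 difference was -0.10 ± 0.15 (95% interval -0.43 to 0.23). Slc2a10, or GLUT10, is linked to vitamin C handling and to arterial tortuosity when mutated. Probe set 1449477_s_at was just above the dim level, at 33, 23, 37 and 17 in controls and 24, 22, 20 and 25 in GR_KO muscle. Controls were the more scattered group, and the log2 difference was -0.21 ± 0.31, or -0.42 without control replicate 4 and -0.05 without control replicate 3. Its second probe set, 1419434_at, was dim at 2 to 13.

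Slc2a5 encodes GLUT5, a fructose transporter of gut, kidney, sperm and microglia that has also been found in muscle. Its only probe set, 1416639_at, was dim and was left out of the gene test. It read 20, 19, 19 and 7 in controls and 12, 28, 15 and 13 in GR_KO muscle. The groups overlapped and the log2 difference was 0.09 ± 0.47, with a 95% interval of -0.97 to 1.16. That interval spans 0.509 to 2.24 times the control level, and levels within that range are compatible with these arrays.

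**Figure D2:**
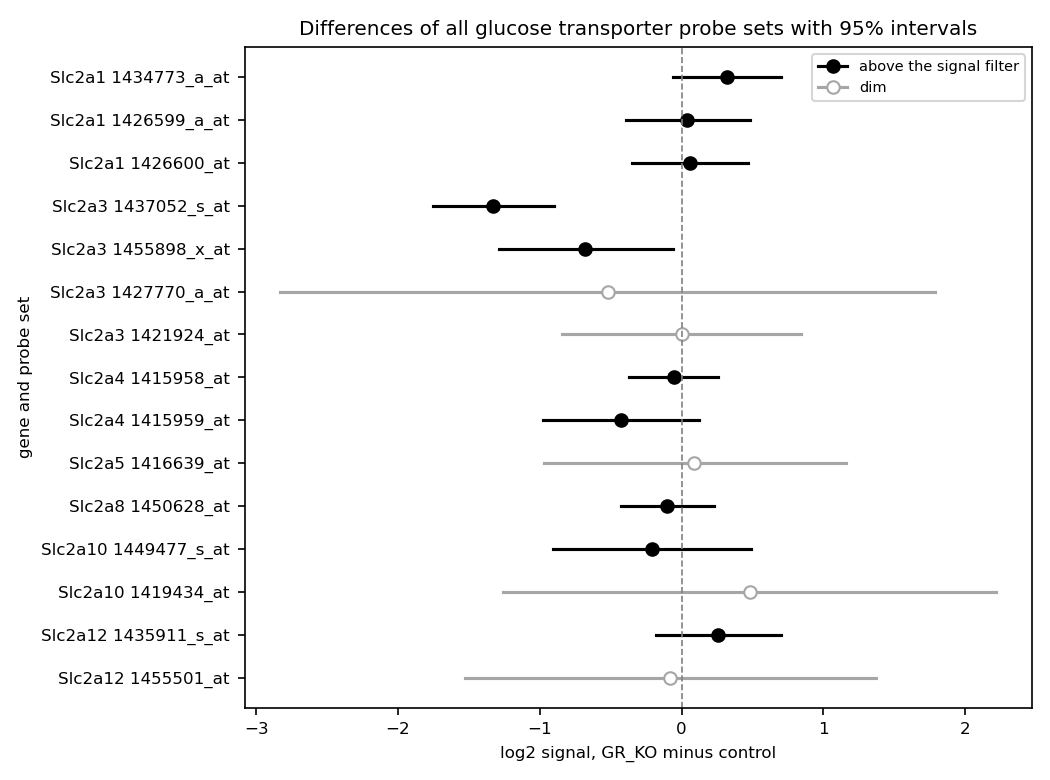
Difference in mean log2 signal, GR_KO minus control (horizontal axis), with its 95% interval from limma, for all 15 probe sets of the 7 transporters. Filled points are above the dim level and open points are dim. Only the intervals of Slc2a3 1437052_s_at (-1.75 to -0.90) and 1455898_x_at (-1.29 to -0.06) do not cross 0.

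Of the 15 member probe sets, 10 were above the dim level, and 1 of these had groups that did not overlap, against 2.19% of all 22518 probe sets above it. Of the 7 genes, 6 were tested and 5 of them were not called. The log2 differences of these 5 lay between -0.21 for Slc2a10 and 0.32 for Slc2a1. The median over the 6 tested members was -0.08, beside 0.01 for all genes tested. The family has further members on the array that were not listed. Slc2a2 (the liver transporter), Slc2a6, Slc2a9 (a urate transporter) and Slc2a13 (a myo-inositol transporter) were dim at each of their probe sets, with signals from 1 to 22. Slc2a7 was not analysed here.

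Cell types other than myofibres that carry GLUT3 were followed through markers. Of 14 macrophage and leukocyte markers, 12 were above the dim level. Their summed signal was 722 to 2228 in controls and 814 to 1587 in GR_KO muscle, with a median log2 difference of -0.06, or 0.13 without GR_KO replicate 4. Of 6 platelet markers, 2 were above it, with Ppbp, Gp9 and Treml1 dim, their sum was 137 to 202 against 163 to 215, and the median was 0.22. Of 13 Schwann cell and nerve markers, 6 were above it, with the neurofilament genes Nefl and Nefm dim, and their sum was 1063 to 3920 against 1408 to 4213. All 6 had differences above 0, with a median of 0.47, or 0.24 without control replicate 4. The sums of these lists overlapped between groups, and the part of these cell types in the Slc2a3 values was not tested.

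The genes whose profile over the 8 arrays was nearest to that of Slc2a3 were Mrln, Ttll7, Golm1, Nnt and Oat. Nearness was the root mean square difference of log2 signals, each centred on its own mean, and it was 0.21, 0.21, 0.25, 0.29 and 0.29, against a median of 0.76 over all genes tested. It was taken over all arrays, so the difference between groups is part of it. Mrln encodes myoregulin, a micropeptide inhibitor of the calcium pump of muscle, and read 1919, 1648, 1654 and 1556 in controls against 749, 525, 983 and 618. GR_KO replicate 2 was lowest for Mrln, as for Slc2a3, whereas Golm1 was lowest on GR_KO replicate 4, at 108 against 130 on replicate 2. Ttll7, a tubulin polyglutamylase, read 806, 557, 577 and 803 against 474, 253, 334 and 272, also lowest on GR_KO replicate 2. The log2 differences were -1.27 for Mrln, -1.06 for Ttll7 and -1.10 for Golm1 (a Golgi protein). They were -0.87 for Nnt (a mitochondrial transhydrogenase), with -0.31 at its other probe set above the dim level, and -0.87 for Oat (ornithine aminotransferase). In Nnt the groups overlapped, and in the others they did not, where 2.58% of all genes tested had groups that did not overlap. Choosing genes near Slc2a3, whose groups did not overlap, favours such separation and a shared lowest array. Nothing is therefore read from either.

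**Figure D3:**
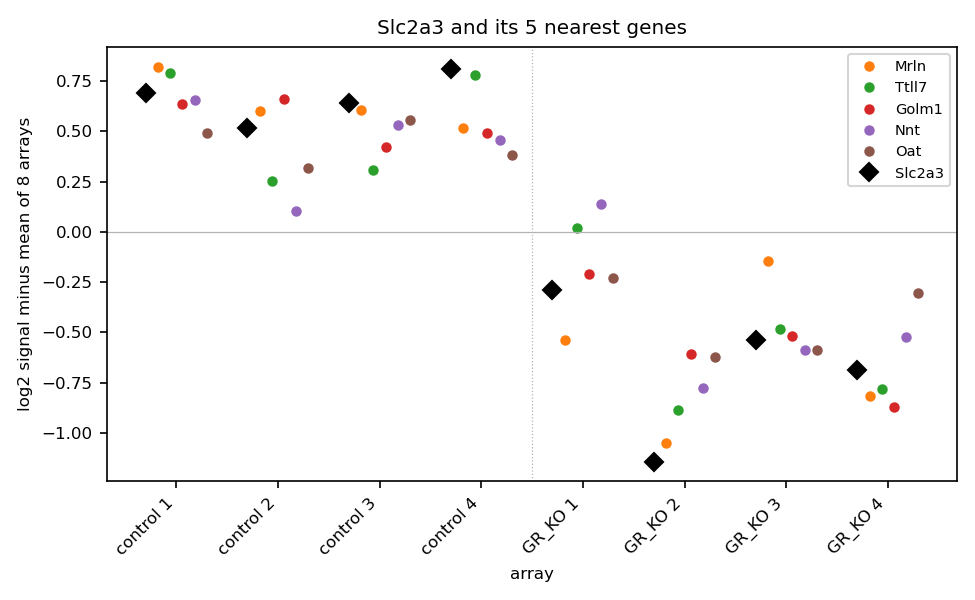
Log2 signal minus the gene's mean over 8 arrays (vertical axis) for Slc2a3 (1437052_s_at, black diamonds) and its 5 nearest genes (coloured points), for each array; points of an array are set side by side. GR_KO replicate 2 is the lowest array for Slc2a3 (a signal of 46), Mrln (525), Ttll7 (253), Nnt (100) and Oat (535), but not for Golm1, which is lowest on GR_KO replicate 4 (108).

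The machinery that acts on these transporters was followed in 7 lists of 125 genes, of which 99 were tested. In limma, 0 of the 99 were called lower and 0 higher. At an unadjusted p under 0.05 there were 5, or 5.05%, beside 4.63% of all genes tested. Groups did not overlap in 3 of the 99, or 3.03%, beside 2.58% of all genes tested. The median log2 difference of the 99 was 0.02, with 47 below 0 and 52 above, so the lists as a whole sat where all genes did. None of the values below passed adjustment over all genes (adjusted p of at least 0.777 in limma).

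GLUT4 vesicles are sorted, tethered and fused with the surface membrane by Rab proteins, their GTPase-activating proteins and SNAREs. Of 34 listed genes, 28 were tested, with 12 below 0, 16 above and a median of 0.06. Tbc1d4 (AS160), the Akt target that holds GLUT4 vesicles back, read 184, 103, 213 and 303 in controls and 152, 163, 100 and 188 in GR_KO muscle. The groups overlapped, with a log2 difference of -0.35 ± 0.30 here and 0.25 at its other probe set. Its relative Tbc1d1 differed by 0.00 ± 0.13, with other probe sets above the dim level at -0.33 and -0.57. Stxbp4, a syntaxin-binding protein that restrains vesicle fusion, differed by 0.58 ± 0.21 but by -0.50 at its other probe set above the dim level. The motor Myo1c differed by 0.34 ± 0.18, with other probe sets above the dim level from 0.03 to 0.42. The GTPase Rac1 differed by -0.30 ± 0.16 and by -0.11 at its other probe set above the dim level.

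The insulin signal reaches these vesicles through the receptor, PI3-kinase and Akt. All 16 measured genes of this list were tested, 8 below 0 and 8 above, with a median of 0.00. Pik3r1, the regulatory subunit of PI3-kinase, read 562, 457, 455 and 447 in controls and 326, 392, 282 and 232 in GR_KO muscle. The groups did not overlap, the log2 difference was -0.66 ± 0.17 (limma adjusted p = 0.777), and its other probe sets above the dim level gave -0.74 and -0.48. The related subunit gene Pik3r2 differed by 0.35 ± 0.18 and the insulin receptor Insr by -0.27 ± 0.20.

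Contraction and low energy raise glucose uptake through AMP-activated kinase, calcium and nitric oxide. Of 18 genes, 17 were tested, with 8 below 0, 9 above and a median of 0.07. Nos1, the nitric oxide synthase anchored at the muscle membrane, read 964, 895, 834 and 718 in controls and 543, 594, 699 and 595 in GR_KO muscle. Every GR_KO array was below every control, with a log2 difference of -0.49 ± 0.14 (limma adjusted p = 0.850) and -0.48 and -0.69 at its other probe sets above the dim level. Camk2a, a calcium-dependent kinase, differed by 0.60 ± 0.30, with other probe sets above the dim level from -0.65 to 0.48. Cab39, a partner of the AMP kinase activator LKB1, differed by -0.61 ± 0.31 and by -0.20 at its second probe set.

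Hexokinases trap glucose in the cell as glucose 6-phosphate. Of 14 genes of this step, 7 were tested, with 4 below 0, 3 above and a median of -0.04. Hk2, the insulin-regulated hexokinase of muscle, read 2532, 2167, 1915 and 2471 in controls and 2157, 1832, 1988 and 1807 in GR_KO muscle. The groups overlapped, with a log2 difference of -0.22 ± 0.14. The more widely expressed Hk1 differed by 0.30 ± 0.18, with 0.21 at its other probe set. Adpgk, an ADP-dependent glucokinase, differed by -0.38 ± 0.34, with 0.27 at its other probe set. Of 13 other sugar transporters, 9 were tested, with 6 below 0, 3 above and a median of -0.02. Among these the glucose 6-phosphate carrier Slc37a4 differed by 0.29 ± 0.23 and the sodium-coupled Slc5a10 by -0.38 ± 0.32. Slc37a3, a relative of Slc37a4, differed by -0.26 ± 0.21, with -0.03 at its other probe set.

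Regulators of transporter genes and proteins gave a median of 0.06 over 22 tested of 24 listed, with 9 below 0 and 13 above. Klf15, a zinc finger factor known to raise Slc2a4 transcription and itself a glucocorticoid target, read 294, 204, 222 and 267 in controls and 199, 203, 154 and 160 in GR_KO muscle. The groups came within 1 unit of each other without overlapping, and the log2 difference was -0.46 ± 0.17. Mef2a, which binds the Slc2a4 promoter, differed by 0.26 ± 0.16, with other probe sets above the dim level from -0.41 to 0.44. The coactivator Ppargc1b differed by 0.38 ± 0.16 and Nfic, a nuclear factor, by 0.34 ± 0.18. Txnip, an arrestin-like protein that takes GLUT1 and GLUT4 off the surface, differed by -0.01 ± 0.16 and by -0.38 at its second probe set. Tbc1d4, Stxbp4, Camk2a, Adpgk, Mef2a and Nfic thus had probe sets of both signs. Leaving out control replicate 4 moved several of the named differences. They were then -0.34 for Cab39, -0.12 for Tbc1d4 (-0.64 without control replicate 2), -0.13 for Adpgk, -0.15 for Insr, 0.39 for Camk2a, 0.22 for Pik3r2 and 0.20 for Nfic. They were 0.09 for Slc37a4, -0.08 for Slc37a3 and -0.64 for Slc5a10. Nos1, Pik3r1 and Klf15 stayed between -0.79 and -0.37 whichever array was left out. They were named for their small p on these same arrays, so nothing is read from this.

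RefSeq promoter sequences (GRCm38.p6, 250 bases before to 50 after the annotated start) matched 5 of the 7 transporters. Slc2a3 and Slc2a4 had no entry. The receptor's short recognition motif, AGAACA on either strand, was in 0 of these 5 windows and in 19.0% of the 32851 promoters of that length. A pair of these motifs facing each other across 3 bases, the classical palindrome, was in 0 of the 5 and in 3 of all promoters. These counts say only that the letters are not in these windows.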

How the data were processed

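The table held signal intensities of 8 arrays, 4 per group, deposited by the authors on a linear scale and, per the submitters' processing notes, summarised by MAS5. The MAS5 version and target are not stated in these sources. With 2% of probe sets trimmed from either end, all arrays had the same mean, 99.96. The 64 control probe sets were left out of the tests.

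Signals were log2-transformed with no pseudocount (0 was set to the array's smallest positive value, which touched 1 member value). The brightest of a gene's single-symbol probe sets stood for it, and 11062 of 18193 genes were above the median probe set signal of 19.4. Groups were compared with limma 3.58.1 in R 4.3.3 (lmFit, eBayes with trend, two-sided), adjusted by Benjamini-Hochberg over all genes, or over 22518 probe sets in a separate fit, at 0.05. Intervals and standard errors of member probe sets come from a fit of all 45037 probe sets. Steps were tested on simulated data. Pathway genes named are the 3 of each list with the smallest p, plus Hk2, Txnip, Tbc1d4, Tbc1d1 and Mef2a; those nearest to Slc2a3 are the first 5, predicted transcripts passed over. Members, lists and rules were chosen with earlier results of these data known. Of the 125 listed pathway genes, 9 were not analysed here. Alternatives are given with the sensitivity of the results. Figures were drawn with Python 3.11.15.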

Additional observations from a re-analysis of the deposited data

Results flagged for a closer look

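Of 66 groups of 4 arrays checked, over the member probe sets above the dim level, the named pathway genes and the spike-ins, 4 held an array far from the other three by Dixon's criterion, which chance alone gives in about 1 group in 20. The Slc2a4 probe set 1415958_at read 2450 on control replicate 4, the array with the high spike-in signal, below 2753 to 2788 on the other controls. Cab39 read 573 on GR_KO replicate 1, Pik3r1 read 562 on control replicate 1, and Mef2a read 723 on control replicate 2, each above the other arrays of its group.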

How the results depend on the processing

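The 6 genes called in limma became 0 without the filter (857 genes at an unadjusted p under 0.05), 1 with the mean of a gene's probe sets, 2 without the variance trend and 10 with array weights; with single arrays left out the count lay between 0 and 5. The 5 probe sets called became 3 with quantile normalization, 0 without the filter (1944 at an unadjusted p under 0.05), 1 without the trend and 10 with array weights, and lay between 0 and 5 with single arrays left out. The Slc2a3 log2 difference was -0.63 when its probe sets were averaged, 2 of which read 17 or less, and it lay between -1.25 and -1.33 under the other normalizations, pseudocounts and weights. The number of pathway and marker genes called was 0 under every alternative run, and the median of the other members lay between -0.13 and 0.11. With the replicate block, limma called 1 gene and 0 probe sets (753 at an unadjusted p under 0.05), and the adjusted p of Slc2a3 was 0.185. Samples of one replicate number are not said to be paired, their deviations correlated between -0.39 and 0.18, and 0 of 4 control arrays correlated best with their own number. With 4 arrays a group, the intervals of the dim members span several-fold changes either way.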
